A study of Rattus norvegicus with 6 samples.

Results

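Interferon-stimulated genes were followed through the livers of rats kept on 6 diets. The list held 42 gene symbols, and a gene was measured where the array's platform annotation gave a probe set exactly 1 symbol and that symbol was on the list. On this basis 40 genes were measured, of 14506 genes named in all, each by 1 probe set. Xaf1 and Parp14 are not analysed here. All 40 had a mean signal above the 30th percentile of the 29214 probe sets, which left 20450 probe sets for testing.

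The study used adult male Wistar rats, an outbred laboratory strain, 30 in all and 5 per diet. A diet had either high protein (HP) or normal protein (NP), within 1 of 3 backgrounds: low fat, high sucrose with low fat (HS), or high sucrose plus high fat (HS-HF). The 6 groups were thus HP and NP, HP-HS and NP-HS, and HP-HS-HF and NP-HS-HF. All rats first had 10 days on the normal protein diet, then ate their own diet for 5 weeks, and were killed in the fed state, 2 h after a morning meal set at 87.6 kJ. For each diet, RNA from the 5 livers was combined and run on 1 Affymetrix whole-transcript array, so there is 1 value per gene and diet, and the spread between rats was not measured. The question behind the design is whether the protein content of a diet alters what sucrose and fat do in the liver.

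Interferons are cytokines that cells release when they sense foreign or misplaced nucleic acid. Type I interferons bind a receptor whose kinases phosphorylate STAT2, which joins IRF9 in a complex that binds interferon-stimulated response elements in the promoters of its target genes. The products of these genes sense RNA, block steps of viral replication, attach the ubiquitin-like protein ISG15 to other proteins, and feed back on the receptor. Hepatocytes and the resident macrophages of the liver both carry this response, and its genes have a low level of activity in the absence of infection.

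The promoters of the genes that varied most are shown because they carry the letters by which this family is usually recognised. The stretches below were taken from RefSeq promoter windows on the build GRCr8 and cover the gene's own strand, 5′ to 3′. Capitals mark each match to GAAANNGAAA, a simple form of the interferon-stimulated response element, or to its reverse complement, in which N is any base and matches may overlap. Oas1a, Oas1b, Irf7, Ifit3 and Rsad2 are the genes with a match among the 12 with the widest range over the arrays. Ifi27 and Ifi44 varied little over the diets, and were chosen for comparison after their values were seen.
Oas1a: ctctcggGAAATGGAAACTGAAAatcttgt
Oas1b: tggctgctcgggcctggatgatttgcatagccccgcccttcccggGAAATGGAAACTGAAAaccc
Irf7: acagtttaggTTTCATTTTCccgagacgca
Ifit3: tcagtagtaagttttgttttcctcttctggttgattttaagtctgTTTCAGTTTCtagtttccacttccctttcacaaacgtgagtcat
Rsad2: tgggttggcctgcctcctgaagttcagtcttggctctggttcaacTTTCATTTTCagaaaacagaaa
Ifi27: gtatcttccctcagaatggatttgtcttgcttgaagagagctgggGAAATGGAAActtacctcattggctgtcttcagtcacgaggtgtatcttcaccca
Ifi44: gcacactgagTTTCAGTTTCatttcccagg

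The Oas1a stretch lies at chr12:41330418-41330447 on the plus strand and that of Oas1b at chr12:41395892-41395956 on the minus strand. Each holds 2 overlapping matches, which start at positions -41 and -35 for Oas1a and at -59 and -53 for Oas1b. Positions are counted from the transcript start that defines the promoter window. That start lies inside the annotated gene boundary by 43 bases for Oas1a, 39 for Oas1b, 520 for Irf7, 125 for Rsad2 and 29 for Ifi44. The matches of Oas1a, Irf7 and Ifi44 thus lie within the annotated gene. Over the 60 bases that end with these matches, 55 were identical between the 2 genes (91.7%). The Irf7 stretch lies at chr1:205800073-205800102 on the minus strand, Ifit3 at chr1:241527237-241527325 on the plus strand and Rsad2 at chr6:48788246-48788312 on the minus strand. Ifi27 lies at chr6:128355183-128355282 on the plus strand and Ifi44 at chr2:243303847-243303876 on the minus strand. The Ifi27 match shown starts at -84, and a further one at -169 lies outside the stretch.

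A window of 250 bases before a transcript start was at hand for 31 of the 40 genes. Of these, 16 held GAAANNGAAA on either strand (51.6%), against 1140 of all 33469 windows (3.41%). The motif was in 5 of the 8 windows at hand among the 12 widest-ranging genes and in 11 of the 23 windows of the others. A match describes the letters only, and its absence says no more than that these letters are not in this window.

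The array values are log2 expression, and 1 unit is a doubling. The 6 array medians lay within 0.033 of each other and the arrays' pairwise Pearson correlations over probe sets between 0.995 and 0.996. The hepatocyte markers (8 of 8 measured, albumin and transferrin among them) averaged between 13.12 and 13.18 on every array. The T cell receptor chains Cd3d, Cd3e and Cd3g were below the signal filter, whereas 9 of the 14 T and NK cell markers passed it.

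The interferon-stimulated genes stood highest on the NP array, the normal protein, low fat diet. Of the 40 genes, 20 had their highest value there (50%), against 17.1% of all probe sets tested. Their lowest value was on the NP-HS-HF array for 21 genes (52.5%), against 17.7% of all probe sets. Measured from its own mean over the 6 arrays, the median gene lay at 0.04 on HP and 0.11 on NP, at -0.07 on HP-HS and 0.04 on NP-HS, and at -0.06 on HP-HS-HF and -0.16 on NP-HS-HF. The median over all probe sets stayed between -0.002 and 0.003 on every array.

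The height on NP came from some of the genes and not from all. The 32 further interferon-induced genes measured outside the list of 40 had a median deviation of 0.003 on NP. Of these 32, 10 were highest on NP and 6 lowest there, against 17.1% of all probe sets highest on NP. Of 8 interferon gamma targets measured, 5 were highest on NP and 2 lowest, with a median deviation of 0.096. Mx2, Ifit1, Usp18, Isg15, Irf7, Herc6 and Oas1a each read 1.5-fold or more above every other array on NP. Those 7 genes were among only 13 probe sets of the 20450 with this pattern (0.0636%). Ifit1, with a mean of 5.12 on the other 5 arrays, passed the signal filter of 5.14 only through its NP value, so its part in this count was fixed by the filter. With the filter on the mean of the other 5 arrays, a setting chosen after seeing the data, 6 of the remaining 39 genes kept the pattern, among 11 of 20386 probe sets (0.054%). Mx2 and Usp18 were then among the 3 probe sets at least 2-fold above every other array on NP. Not 1 of the 40 genes stood 1.5-fold above or below all other arrays on any of the other 5 arrays, although 26 probe sets stood above on HP-HS-HF. Among the 12 genes with the widest range, which spanned 0.70 to 2.12 over the arrays, the median deviation on NP was 0.81. The other 28 spanned 0.14 to 0.67 and had a median deviation of 0.07 on NP. The 12 were chosen by their range over these same arrays, so a larger deviation on some array follows from the choice.

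**Figure D1:**
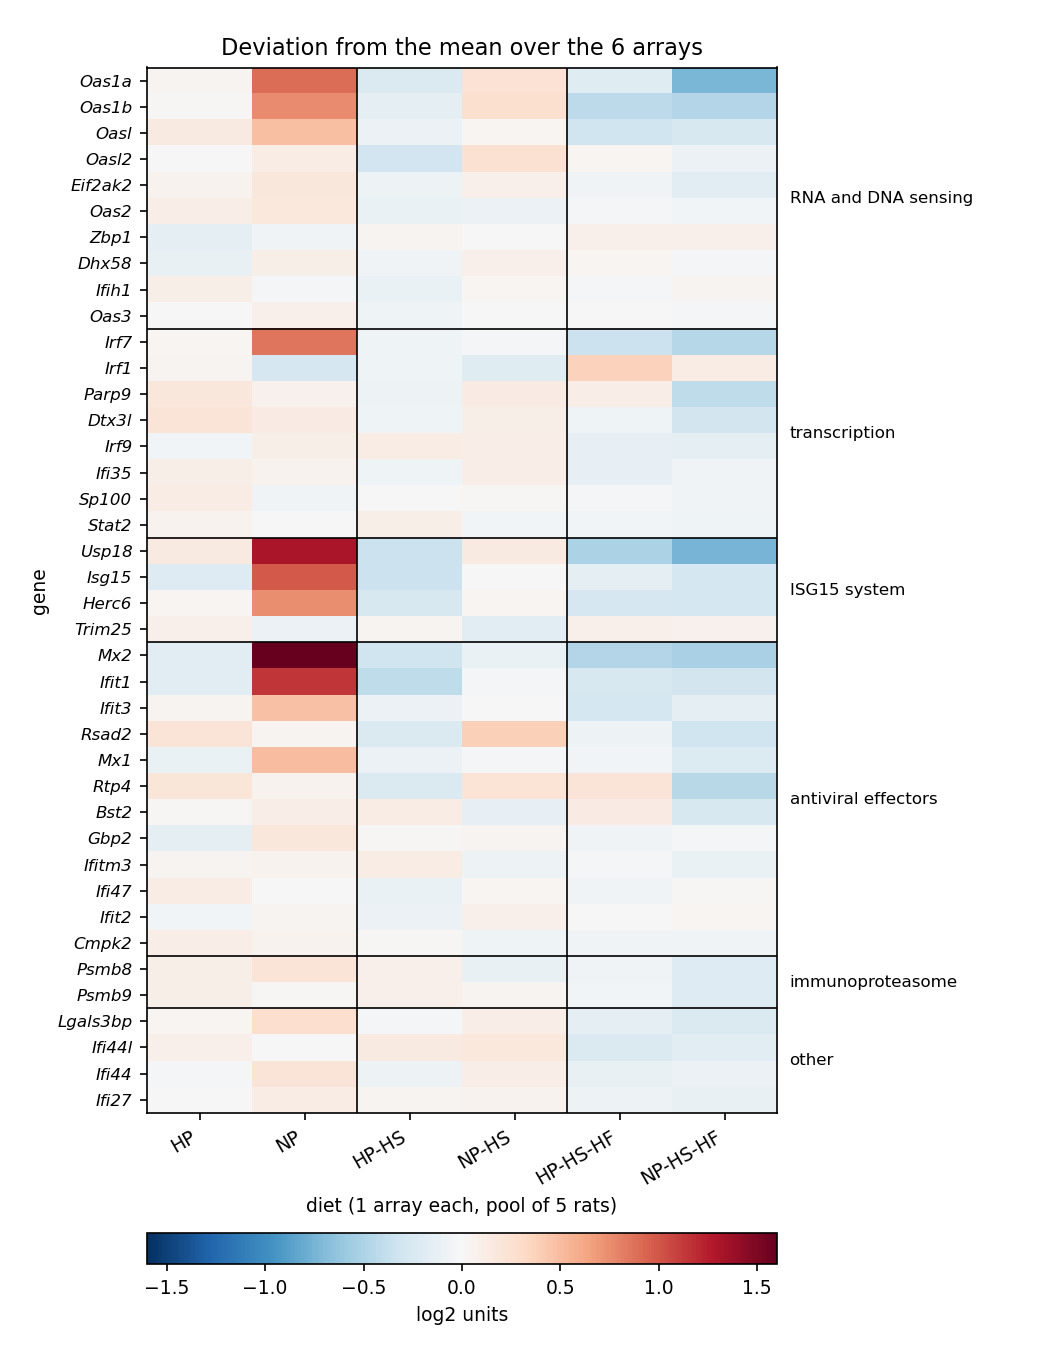
Deviation of each of the 40 interferon-stimulated genes (rows, grouped by role) from its own mean over the 6 arrays, in log2 units, with 1 column per diet (1 array, a pool of 5 rats). The strongest red lies in the NP column, at Mx2, Usp18 and Ifit1, and the NP-HS-HF column is mostly blue, with 21 genes at their lowest there.

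The sensors of foreign nucleic acid numbered 10, and 7 of them were highest on NP. Oas1a makes the 2′-5′ oligoadenylates that switch on the ribonuclease RNase L. Its probe set read 7.71 on HP and 8.57 on NP, 7.44 on HP-HS and 7.90 on NP-HS, and 7.48 on HP-HS-HF and 6.93 on NP-HS-HF. With normal protein the level was thus lower with each addition to the diet, whereas the 3 high protein arrays lay closer together. High protein was 1.81-fold lower than normal protein on low fat (log2 difference -0.86), and the difference was -0.46 on HS and 0.54 on HS-HF.

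Oas1b, a paralog known in mouse for resistance to flaviviruses, read 5.92 on HP and 6.66 on NP, 5.75 on HP-HS and 6.16 on NP-HS, and 5.48 on HP-HS-HF and 5.43 on NP-HS-HF. It was highest on NP and low on both HS-HF arrays, which differed by 0.05. Oasl, an OAS-like protein with ubiquitin-like domains, read 6.71 on HP and 7.04 on NP, 6.47 on HP-HS and 6.60 on NP-HS, and 6.24 on HP-HS-HF and 6.31 on NP-HS-HF. It was lower with high protein in each of the 3 backgrounds. Oas1a and Oas1b are paralogs, and how alike their transcripts are was not computed. Whether probes of 1 also bind RNA of the other was not tested, and their values count as uncertain on this point.

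The other 7 sensors moved less. Eif2ak2, the kinase PKR that halts translation on double-stranded RNA, spanned 0.35 over the arrays, and Oas2 and Oas3, the larger oligoadenylate synthetases, spanned 0.27 and 0.14. All 3 were highest on NP, as was Dhx58 (LGP2), which spanned 0.22. Ifih1 (MDA5), the receptor of long double-stranded RNA, spanned 0.20 and was highest on HP, and Zbp1, a sensor of Z-form nucleic acid, spanned 0.22 and was highest on NP-HS-HF. Oasl2 spanned 0.55, with its lowest value, 6.23, on HP-HS and its highest, 6.79, on NP-HS.

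The transcription group held 8 genes, of which only Irf7 was highest on NP. Irf7 is the factor that amplifies type I interferon production. It read 7.47 on HP and 8.30 on NP, 7.37 on HP-HS and 7.43 on NP-HS, and 7.10 on HP-HS-HF and 6.99 on NP-HS-HF. Outside the NP array its values spanned 0.48. HP was 1.77-fold lower than NP (log2 difference -0.83), and the differences on HS and HS-HF were -0.06 and 0.11.

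The partners of the response complex itself hardly moved. Stat2 read 10.35 on HP and 10.30 on NP, 10.39 on HP-HS and 10.25 on NP-HS, and 10.25 on HP-HS-HF and 10.23 on NP-HS-HF, a span of 0.17. Irf9, the DNA-binding subunit, read 8.68 on HP and 8.81 on NP, 8.85 on HP-HS and 8.83 on NP-HS, and 8.59 on HP-HS-HF and 8.57 on NP-HS-HF. Neither stood out on NP, and Irf9 had its 2 lowest values on the HS-HF arrays.

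Irf1, a factor also induced by interferon gamma and inflammatory cytokines, went the other way. It read 7.66 on HP and 7.36 on NP, 7.56 on HP-HS and 7.42 on NP-HS, and 7.99 on HP-HS-HF and 7.74 on NP-HS-HF. NP was its lowest array, and the high protein array was above the normal protein array in every background. Among the remaining factors, Parp9 and Dtx3l, partners in a complex that modifies histones, were both lowest on NP-HS-HF, at 8.73 and 7.06. Ifi35 and Sp100, a component of nuclear PML bodies, spanned 0.24 and 0.18.

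The ISG15 system had the largest shift on NP of the role groups, with a median deviation of 0.86 over its 4 genes. Isg15 encodes the ubiquitin-like modifier. It read 6.50 on HP and 7.69 on NP, 6.36 on HP-HS and 6.70 on NP-HS, and 6.56 on HP-HS-HF and 6.42 on NP-HS-HF. HP was 2.27-fold lower than NP (log2 difference -1.18), and the 5 arrays other than NP spanned 0.34.

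Usp18 removes ISG15 from proteins and restrains signalling at the type I interferon receptor. It read 7.90 on HP and 9.05 on NP, 7.41 on HP-HS and 7.90 on NP-HS, and 7.24 on HP-HS-HF and 7.00 on NP-HS-HF. Unlike Isg15, it also varied outside NP, by 0.90, with both HS-HF arrays low. The difference of high from normal protein was -1.16 on low fat, -0.49 on HS and 0.24 on HS-HF. Herc6, the main ISG15 ligase in mouse, read 7.02 on HP and 7.72 on NP, 6.72 on HP-HS and 7.02 on NP-HS, and 6.71 on HP-HS-HF and 6.69 on NP-HS-HF. Trim25, a ubiquitin ligase acting in RIG-I signalling, spanned 0.26 and was not raised on NP.

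The antiviral effectors numbered 12, with 5 highest on NP and 6 lowest on NP-HS-HF. Mx2, a dynamin-like GTPase that is cytoplasmic in rodents, had the widest range of the 40 genes. It read 7.26 on HP and 9.03 on NP, 7.11 on HP-HS and 7.33 on NP-HS, and 6.97 on HP-HS-HF and 6.91 on NP-HS-HF. NP was 1.70 above the next highest array, and the other 5 arrays spanned 0.42. HP was 3.41-fold lower than NP, whereas the differences on HS and HS-HF were -0.22 and 0.05 on the log2 scale.

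Mx1, its nuclear relative in rodents, read 5.90 on HP and 6.49 on NP, 5.91 on HP-HS and 5.97 on NP-HS, and 5.95 on HP-HS-HF and 5.79 on NP-HS-HF. Its height on NP was the same pattern at a smaller size, with the 5 other arrays within 0.18 of each other. Ifit1, which binds viral RNA lacking the cellular cap marks, read 5.18 on HP and 6.50 on NP, 4.95 on HP-HS and 5.32 on NP-HS, and 5.10 on HP-HS-HF and 5.06 on NP-HS-HF. It was 2.49-fold lower on HP than on NP. Ifit3, its binding partner, read 6.24 on HP and 6.67 on NP, 6.10 on HP-HS and 6.21 on NP-HS, and 5.92 on HP-HS-HF and 6.04 on NP-HS-HF. High protein was below normal protein in all 3 backgrounds, by between 0.10 and 0.43. The neighbouring family member Ifit2 spanned only 0.18.

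Rsad2 (viperin), which makes a chain-terminating nucleotide, did not follow the NP pattern. It read 5.96 on HP and 5.79 on NP, 5.52 on HP-HS and 6.13 on NP-HS, and 5.66 on HP-HS-HF and 5.43 on NP-HS-HF. Its highest array was NP-HS, and its 2 lowest were NP-HS-HF and HP-HS. Rtp4, an inhibitor of RNA virus replication named here after its values were seen, read 7.88 on HP and 7.75 on NP, 7.46 on HP-HS and 7.92 on NP-HS, and 7.90 on HP-HS-HF and 7.25 on NP-HS-HF. It too was lowest on NP-HS-HF and next lowest on HP-HS. Cmpk2, the nucleotide kinase gene beside Rsad2 in the genome, spanned 0.17.

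The remaining effectors and downstream genes had small ranges. Bst2, the tetherin that holds virus particles at the membrane, spanned 0.39, and Gbp2, a guanylate-binding protein, 0.33. Ifitm3, which blocks viral entry, spanned 0.23 and Ifi47, an immunity-related GTPase, 0.22. The immunoproteasome subunits Psmb8 and Psmb9 spanned 0.41 and 0.30 and were lowest on NP-HS-HF. Lgals3bp, a secreted glycoprotein, spanned 0.51, Ifi44l 0.40, Ifi44 0.32 and Ifi27 0.23. Lgals3bp, Ifi44 and Ifi27 were highest on NP.

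**Figure D2:**
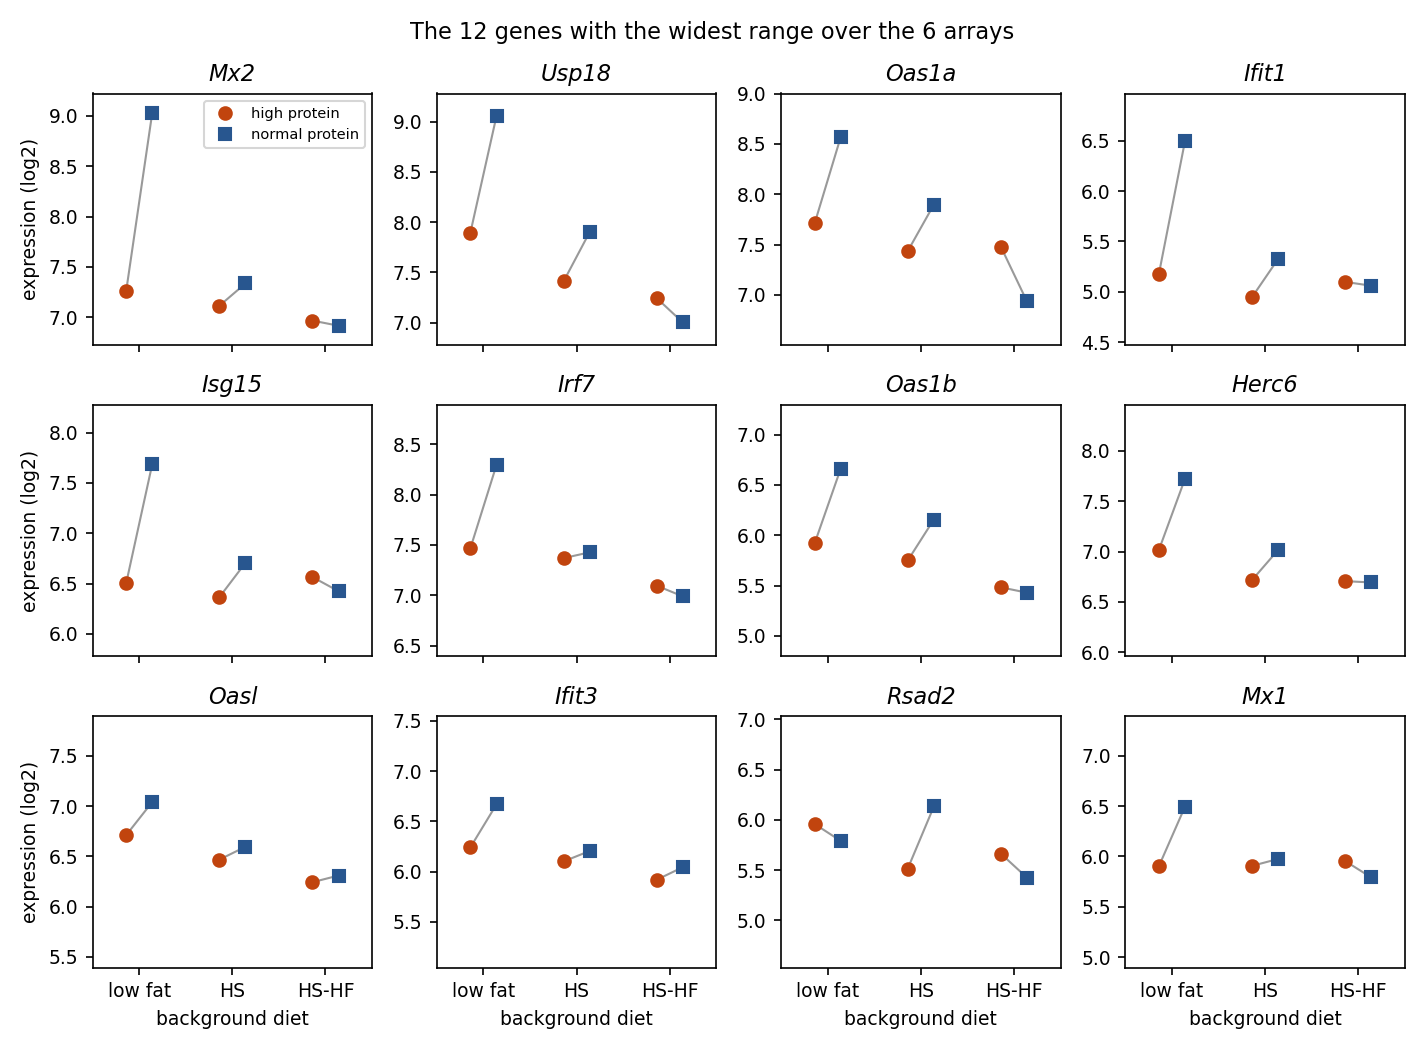
Expression (log2) of the 12 genes with the widest range over the arrays, with 1 panel per gene, high protein as circles and normal protein as squares, in the low fat, HS and HS-HF backgrounds (1 array per point; every panel spans the same number of log2 units). Mx2, Usp18, Ifit1 and Isg15 have their NP point far above the other 5, whereas Rsad2 is highest on NP-HS.

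High protein against normal protein was compared within each background, with 1 array on each side and hence no test. On low fat, 9 of the 40 genes were 1.5-fold or more lower on HP than on NP, against 0.641% of all probe sets. They were Mx2, Ifit1, Isg15, Usp18, Oas1a, Irf7, Oas1b, Herc6 and Mx1. Ifit1 passed the signal filter only through its NP value, which favoured its place in this count. None of the 40 was 1.5-fold higher, against 0.738% of all probe sets. The median difference was -0.10, with 26 genes below 0, and the median over all probe sets was -0.002.

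With high sucrose, only Rsad2 was 1.5-fold lower on HP-HS than on NP-HS, against 0.523% of all probe sets, and 0 genes were higher, against 0.87%. The median difference was -0.13, and 30 of the 40 genes were below 0. With high sucrose and high fat, 0 genes were 1.5-fold lower on HP-HS-HF than on NP-HS-HF, against 0.66% of all probe sets. Rtp4 alone was higher (log2 difference 0.65), against 0.836%. The median there was 0.05, and 29 genes were above 0.

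**Figure D3:**
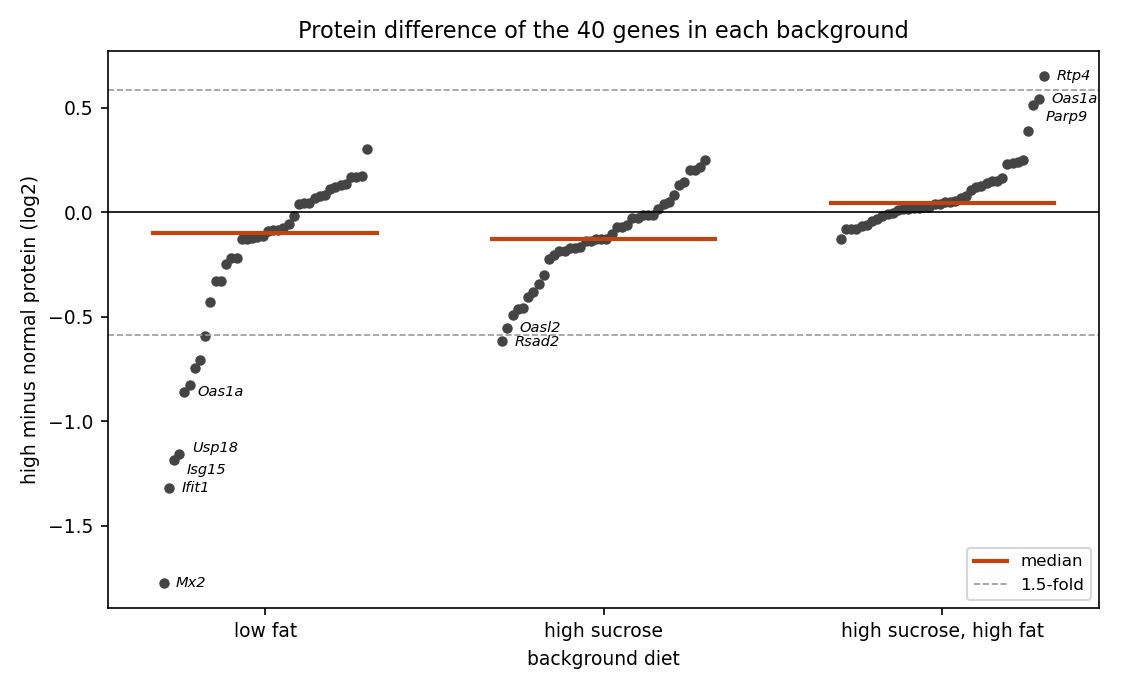
High minus normal protein (log2) for each of the 40 genes, ordered by size within each background, with the median as a bar and dashed lines at 1.5-fold (1 array on each side of every difference). On low fat 9 points lie below the lower line, down to Mx2 at -1.77, and on HS-HF 1 point, Rtp4, lies above the upper line.

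The protein effect was fitted over all 6 arrays with limma, as the mean of the 3 differences, with terms for protein and background. The fit called 0 of the 40 genes at an adjusted p under 0.05, and 9 probe sets of all those tested (0.044%). At an unadjusted p under 0.05 there were 4 of the 40 genes, a share near the 8.71% of all probe sets. Oas1b, Herc6 and Ifit3 were lower with high protein and Irf1 was higher. The lowest limma adjusted p was that of Irf1, at 0.425, with a log2 difference of 0.23 ± 0.069 (SE, 3 pairs of arrays, higher in 3 of 3). Mx2 had the largest fitted difference, -0.65 ± 0.324 (SE, limma adjusted p = 0.665). That value was -0.085 without the NP array or without the HP array, and -0.997 without either HS-HF array.

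The wide error of Mx2 reflects its 3 unequal differences, since the residual of this fit is how a difference varies between backgrounds. Whether the protein difference depends on the background could not be tested, as that term leaves no residual degrees of freedom. Without the NP array, which also removes the low fat pair, the median protein effect of the 40 genes was -0.02, against -0.05 with it. Then 21 genes lay below 0, against 28 with it.

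Sucrose was compared with low fat at each protein level. On normal protein, 7 genes were 1.5-fold or more lower on NP-HS than on NP, against 0.499% of all probe sets. They were Oas1a, Irf7, Isg15, Usp18, Herc6, Mx2 and Ifit1. On high protein, 0 genes were 1.5-fold lower on HP-HS than on HP, against 0.372%, although 30 of the 40 lay below 0, with a median of -0.11. The 7 differences on normal protein rest on the NP array, which stands on 1 side of each. Ifit1, among the 7, also passed the signal filter only through its NP value.

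High sucrose with high fat was next compared with high sucrose alone. On NP-HS-HF against NP-HS, 5 genes were 1.5-fold or more lower (Oas1a, Oas1b, Usp18, Rsad2 and Rtp4), against 0.489% of all probe sets, and 34 of the 40 lay below 0. This comparison does not involve the NP array, but it rests on the NP-HS-HF array, where 21 of the 40 genes were lowest. Without NP-HS-HF the median fat effect of the 40 genes was 0.0017, against -0.11 with all arrays. On high protein, 0 genes were 1.5-fold lower on HP-HS-HF than on HP-HS, against 0.592%, and 20 of the 40 lay below 0.

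Sucrose and fat together gave the widest difference. On normal protein, 11 genes were 1.5-fold or more lower on NP-HS-HF than on NP, against 0.626% of all probe sets. Mx2 was at -2.12, Usp18 at -2.05 and Oas1a at -1.63. These 11 include Ifit1, which passed the signal filter only through its NP value. On high protein only Usp18 passed that size on HP-HS-HF against HP, at -0.65, against 0.548% of all probe sets. At a size of 1.2-fold, 9 genes were lower with sucrose and fat at both protein levels: Oas1b, Oasl, Irf7, Dtx3l, Usp18, Herc6, Mx2, Ifit3 and Rsad2. Over all probe sets 163 met this (0.797%). Irf1 was higher at both protein levels, by 0.33 on high and 0.38 on normal protein.

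**Figure D4:**
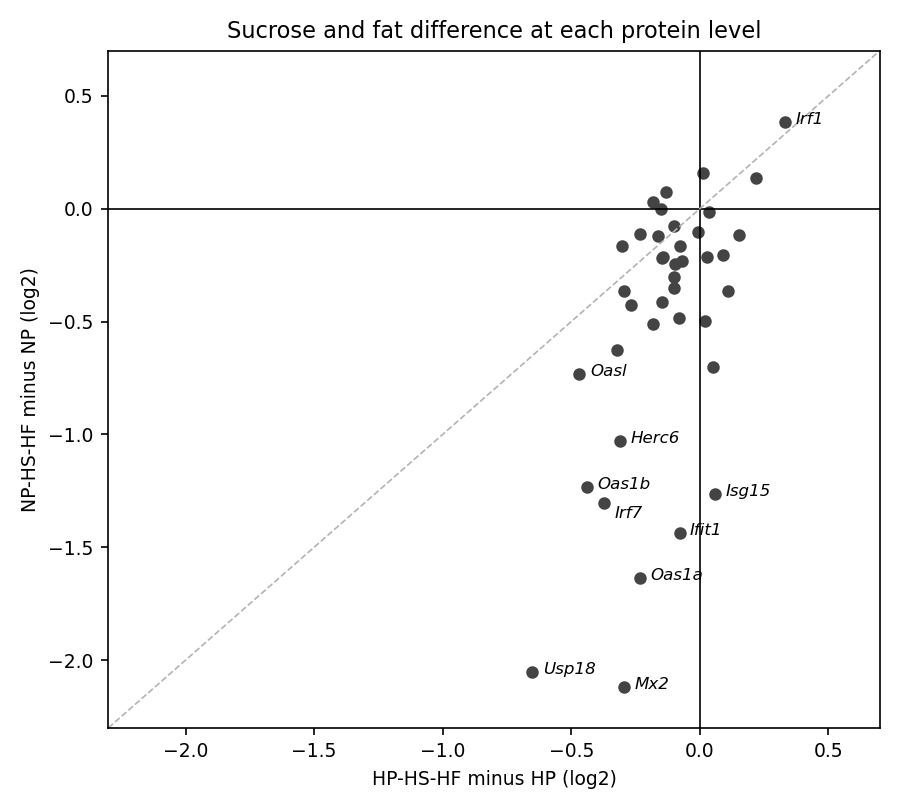
Difference of the HS-HF diet from the low fat diet (log2) for each of the 40 genes, on high protein (horizontal axis) and on normal protein (vertical axis), with a dashed line where both are equal. Most genes lie left of and below 0, and Mx2, Usp18 and Oas1a lie far lower on normal protein (-2.12, -2.05 and -1.63) than on high protein (-0.29, -0.65 and -0.23).

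In the limma fit, 0 of the 40 genes passed for sucrose, for fat, or for sucrose and fat, and so did 0% of all probe sets for each of these effects. At an unadjusted p under 0.05 there were 6 genes for sucrose, all lower, against 3.02% of all probe sets. They were Oas2, Oasl, Usp18, Herc6, Ifit1 and Ifit3, and Ifit1 entered the test only through its NP value. The sucrose effect rests in part on the NP array. Its median over the 40 genes was -0.098 with all arrays, with 34 below 0, and -0.061 without NP, with 28 below 0. For fat, 5 genes had an unadjusted p under 0.05, of which 4 were lower, against 4.95%. For sucrose and fat together there were 14, against 5.18% of all probe sets.

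Of these 14 genes, 13 were lower (Oas1a, Oas1b, Oasl, Irf7, Dtx3l, Usp18, Herc6, Mx2, Ifit1, Ifit3, Psmb8, Ifi44l and Lgals3bp) and Irf1 was higher. Ifit1 entered the test only through its NP value, and leaving it out gives 13 genes, 12 of them lower. Oasl had the lowest p, with a difference of -0.60 ± 0.095 (SE, lower in 2 of 2 protein levels, limma adjusted p = 0.76). Usp18 was at -1.35 ± 0.288 (SE) and Oas1b at -0.84 ± 0.176 (SE), both with a limma adjusted p of 0.783. The median over the 40 genes was -0.19, with 35 below 0, against a median of -0.003 over all probe sets. Without the NP array the median was -0.16, with 34 genes below 0 and 9 at an unadjusted p under 0.05, against 6.12% of all probe sets in that fit. None of these genes passed the adjustment over all probe sets, with or without that array.

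The other genes of the interferon pathway were read from a list of 109 symbols, of which 79 were measured and 77 tested. None passed the limma test for protein, and at an unadjusted p under 0.05 there were 5 higher and 5 lower, against 8.71% of all probe sets in either direction. Of 5 ligands measured, Ifnb1 and Ifng were below the signal filter on average. The type I ligands Ifna4 and Ifna5 passed it and were highest on NP, at 6.42 and 6.77. Their high minus normal protein differences were -0.23 and -0.18 on low fat, and Ifnk spanned 0.26. Of the 5 ligands, 3 were lower and 2 higher on HP than on NP. Their median deviation was 0.055 on NP and 0.066 on NP-HS. Of the receptor chains, Ifnar1 of the type I receptor spanned 0.24 over the arrays, Ifngr1 and Ifngr2 of the interferon gamma receptor 0.14 and 0.32, and Il10rb, shared by the type III receptor, 0.26. Ifnar2 is not analysed here. The spans of these receptor chains were of the size seen in the 28 genes outside the 12 widest-ranging, which spanned 0.14 to 0.67.

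Only 1 of the 79, Oas1i, was 1.5-fold or more lower on HP than on NP. Oas1i, a further Oas1 paralog and subject to the same uncertainty as Oas1a and Oas1b, read 6.90 on HP and 7.62 on NP, 6.70 on HP-HS and 7.47 on NP-HS, and 6.51 on HP-HS-HF and 6.67 on NP-HS-HF. It was raised on both NP and NP-HS, unlike Mx2. Tor3a, an ATPase of the endoplasmic reticulum, was the other gene with a range above 1. It read 6.88 on HP and 6.60 on NP, 6.78 on HP-HS and 6.40 on NP-HS, and 8.25 on HP-HS-HF and 6.62 on NP-HS-HF, with a single high array that was not NP. For sucrose and fat, 8 of the 77 were lower and 0 higher at an unadjusted p under 0.05, against 5.18% of all probe sets in either direction, and 0 passed. The 32 further induced genes held 7 of these 8. On low fat, 14 of those 32 were lower on HP than on NP and 18 higher, with a median difference of 0.04.

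Markers of the cells that could carry the response were read beside these genes, since in whole liver fewer cells of a type and less RNA per cell cannot be told apart. Of the macrophage markers, 13 of 14 were measured and all 13 were higher on HP than on NP, the reverse of the interferon-stimulated genes. Their mean level was 8.56 on HP and 8.33 on NP, 8.64 on HP-HS and 8.43 on NP-HS, and 8.46 on HP-HS-HF and 8.31 on NP-HS-HF. At an unadjusted p under 0.05 for protein there were 8 of the 13, all higher, against 8.71% of all probe sets, and 0 passed limma's adjusted test. Other cell types' markers were also mostly higher on HP than on NP, namely 6 of 6 endothelial, 6 of 8 stellate and 3 of 3 red cell markers.

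The plasmacytoid dendritic markers, of a cell known for type I interferon release, had 7 of 8 measured, and 6 of these were lower on HP than on NP, with a median difference of -0.14 over the 7. Lower on HP were also 10 of 14 T and NK cell markers, by a median difference of -0.05, and 5 of 7 neutrophil markers. Bst2 is itself 1 of the 40 genes, and Irf8 is also in the pathway list. The mean of the 7 plasmacytoid dendritic markers was 6.76 on HP and 6.89 on NP. It was 6.85 on HP-HS and 6.89 on NP-HS, and 6.86 on HP-HS-HF and 6.79 on NP-HS-HF. The part of any of these cell types in the levels of the interferon-stimulated genes was not tested.

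**Figure D5:**
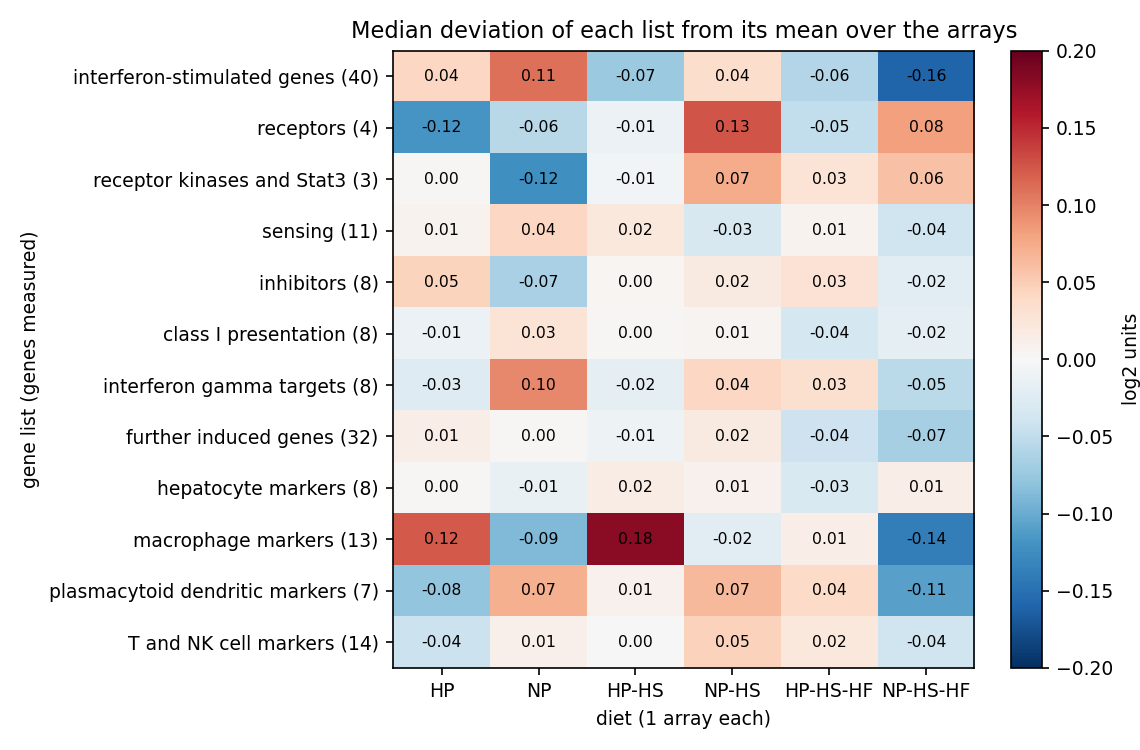
Median deviation of each gene list from its own mean over the 6 arrays (log2 units, printed in each cell; 1 row per list with the number of genes measured, 1 column per diet). The interferon-stimulated genes are at 0.11 on NP and -0.16 on NP-HS-HF, and the macrophage markers are at 0.12 on HP and -0.09 on NP.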

How the data were processed

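The deposited table held log2 expression values that the submitters' processing notes credit to RMA, a method which corrects background, normalises arrays by quantiles and summarises probes. Its version is not given in the sources used here, and no probe set coordinates are used. Per the labels' protocols, 1500 ng of RNA per rat was pooled, RNA with an integrity number of at least 7 was accepted and 100 ng was labelled. The source fields call the animals mice, whereas rat is the organism given and the animal of the growth protocol. Genes were named from the platform annotation, which gave 15310 probe sets 1 symbol, 323 several, and did not list 13581. A gene took the probe set with the highest mean.

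From these values, limma 3.58.1 in R 4.3.3 was fitted to all 6 arrays and to every probe set whose mean lay above the 30th percentile (log2 5.14), with additive terms for protein and background and 2 residual degrees of freedom. P-values were adjusted by Benjamini-Hochberg over all 20450 probe sets for each of 4 effects and called below 0.05. The fit was tested on simulated data. Differences between 2 arrays are values, counted at 1.5-fold, with no test. With 1 pool per diet, the p-values reflect how a difference varies between backgrounds or protein levels, mixed with the spread of pools and arrays. Part of that spread may be technical. The p-values do not measure the spread between rats, and the number of arrays limits the precision. Genes with per-array values are the 12 with the widest range, Stat2, Irf9, Irf1, and pathway genes with a range of 1 or more. Levels of Rtp4, Oasl2, Parp9 and Dtx3l were added after they were seen. The 42 genes and all other lists were chosen with earlier results of these data known. Alternatives were no signal filter, an intensity trend in the prior, an ordinary t statistic without moderation, quantile normalisation, the mean over probe sets, the 4 arrays of a contrast alone, other fold sizes, a filter on the 5 arrays other than NP (added after seeing the data), and leaving out each array.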

Additional observations from a re-analysis of the deposited data

Results flagged for a closer look

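Oas1a differed between high and normal protein in opposite directions, by 0.54 (log2, high minus normal protein) with high sucrose and high fat and by -0.86 on low fat. Rtp4 likewise differed by 0.65 with high sucrose and high fat and by -0.46 with high sucrose. Each of these values is the difference of 1 pair of arrays, and the difference between the backgrounds was not tested.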

How the results depend on the processing

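No paired analysis was possible because the labels carry no replicate numbers to use as a block; the fit itself compares protein levels within each background. The first settings were no signal filter, an intensity trend in the prior and an ordinary t statistic. Further settings were quantile normalisation and the mean over probe sets (each gene has 1). In each, 0 of the 40 genes passed the test for any effect. The same held with only the 4 arrays of the contrast for sucrose, fat, and sucrose and fat. Of these settings, only quantile normalisation can change a fitted difference, so the others do not test the median of the 40. With it the median was -0.050 for protein, -0.096 for sucrose, -0.106 for fat and -0.188 for sucrose and fat. Leaving out 1 array at a time also gave 0. The median of the 40 then lay between -0.14 (without NP-HS) and -0.056 (without HP-HS) for sucrose, against -0.098 with all arrays and -0.061 without NP. It lay between -0.10 and -0.02 for protein and between -0.29 and -0.13 for sucrose and fat. For fat it lay between -0.23 and 0.0017, the higher value without NP-HS-HF, against -0.11 with all arrays. Among the 15 named genes, the protein effect changed sign for 5 when 1 array was left out. Its range was -0.66 to 0.041 for Oas1a, -0.44 to 0.024 for Irf7, -0.33 to 0.047 for Mx1, -0.056 to 0.018 for Irf9 and -0.22 to 0.20 for Rsad2. The first 4 turned positive without NP or without HP, and Rsad2 without NP-HS or without HP-HS. At a 2-fold size, 4 genes in place of 9, Ifit1 among them, were lower on HP than on NP (0.0929% of all probe sets). At that size 0 were lower on HP-HS than on NP-HS (0.103%), and 0 were higher on HP-HS-HF than on NP-HS-HF (0.152%). At 1.2-fold, 12 genes were lower on HP than on NP (6.16% of all probe sets) and 1 higher (6.25%), 9 were lower on HP-HS than on NP-HS (5.95%), and 4 were higher on HP-HS-HF than on NP-HS-HF (7.76%). With 1 array per diet, a difference seen on the NP array alone, or on the NP-HS-HF array alone, cannot be told apart from that pool or array.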

Other observations

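Of the 13 probe sets at least 1.5-fold above every other array on NP, 4 stood for named genes outside the interferon lists. A further 2 had no single symbol or were a second probe set of a gene. The 4 named genes are given as values, chosen after their values were seen and with no test. Ly6al, of the Ly6 family of membrane-anchored proteins, read 5.87 on HP and 7.28 on NP, 4.75 on HP-HS and 6.15 on NP-HS, and 5.99 on HP-HS-HF and 5.34 on NP-HS-HF. Derl3, which acts in the disposal of misfolded proteins from the endoplasmic reticulum, read 7.82 on HP and 9.34 on NP, 7.72 on HP-HS and 8.64 on NP-HS, and 7.87 on HP-HS-HF and 7.77 on NP-HS-HF. Both were lower on HP-HS than on NP-HS as well.

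Pnpla3, a lipid droplet protein linked to fatty liver, read 6.18 on HP and 7.13 on NP, 6.33 on HP-HS and 6.14 on NP-HS, and 6.48 on HP-HS-HF and 6.46 on NP-HS-HF. Hhex, a homeobox factor of liver development, read 9.02 on HP and 9.63 on NP, 8.47 on HP-HS and 9.03 on NP-HS, and 8.60 on HP-HS-HF and 8.67 on NP-HS-HF. Pnpla3 was high on NP alone.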
